A study of Sus scrofa with 8 samples.

Results

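The genes described here are type I interferon-stimulated genes, the set of genes that cells switch on when interferon alpha or beta binds its receptor. They were chosen by name, as 34 listed symbols, by a rule that uses no measured value, though earlier results of these data were known when the list was made. Of these, 31 had a gene in the deposited table of 31907 genes, and 30 had enough counts to be among the 19862 genes tested. IFIT3, RTP4 and XAF1 had no gene under those symbols, and OASL was in the table with too few counts for a test. The study compared whole biopsies of Yorkshire swine skin, labelled wild type, from pig 13 and pig 14. In each pig, IL-15 (200 ng in 100 µl of saline) was placed into the skin at 2 sites that were biopsied 3 h afterwards, and 2 other sites were sampled with no injection. This gave 4 injected biopsies (12e and 12c of pig 13, 12d and 12c of pig 14) and 4 controls (7b and 6b of pig 13, 7e and 6b of pig 14). The purpose given in the design text was to choose genes that IL-15 induces robustly, to read out a topical inhibitor of JAK1 and JAK3.

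All injected sites carry the number 12 and all control sites 6 or 7, and no site injected with saline alone was analysed here. IL-15, the injection itself and the place on the skin therefore cannot be told apart. The biopsies of a group come from only 2 animals, so each p-value below measures the spread between sites within these 2 pigs and says nothing of other pigs.

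Type I interferons bind the receptor chains IFNAR1 and IFNAR2, which activate the kinases JAK1 and TYK2. These phosphorylate STAT2, which joins IRF9 in a complex that binds a short element in the promoters of interferon-stimulated genes. The products of these genes detect viral RNA, block its translation, degrade it, or modify proteins with the ubiquitin-like protein ISG15. IL-15 acts through another receptor, with JAK1 and JAK3, and mainly through STAT5. In skin, keratinocytes, fibroblasts, macrophages and dendritic cells can all express interferon-stimulated genes, and some do so at rest.

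Total counts per biopsy ran from 28471089 to 36070107. Levels are given as CPM, the counts of a gene relative to the TMM-scaled total of its library, and each difference is a log2 fold change with its standard error. Skin markers were abundant in every biopsy, with summed keratinocyte markers of 14371 to 42368 CPM and summed fibroblast markers of 19099 to 192233 CPM. The pig 13 control from site 7b stood apart, with the lowest fibroblast sum, against at least 76771 CPM in the other 7 biopsies, and a neutrophil sum of 518 CPM against 56.9 to 157 CPM elsewhere. Single markers did not all follow these sums. COL1A2 (4617 CPM) and DCN (878 CPM) were lowest in 7b, but PDGFRA was highest there (124 CPM) and LUM was lowest in the control 6b (84.4 CPM). The neutrophil markers CSF3R, MMP8 and MMP25 were highest in other biopsies than 7b. The pig 13 control 6b had the lowest macrophage and monocyte sum, 381 CPM against 605 to 1161 CPM in the other 7, and the lowest T and NK cell sum, 12.2 against 15.2 to 51.9 CPM. Counts of called members are also given without each of these 2 controls. In bulk tissue, fewer cells of a type and less RNA per cell cannot be told apart.

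No interferon-stimulated gene passed the test for injected against control sites (0 of 30, where 0.0352% of all tested genes were called higher and 0 lower). Between the animals, 24 of the 30 were called higher in pig 14 than in pig 13, where 6.39% of all genes were, and 1, OAS1, was called higher in pig 13, where 4.34% were. The median log2 difference of pig 14 over pig 13 was 0.98. In the controls alone, both biopsies of pig 14 were above both of pig 13 for 27 of 30 genes, against 27.4% of all genes. In pig 13, 29 of 30 genes had a log2 difference above 0 between injected and control sites (48.2% of all genes), and in pig 14 17 of 30 had (48.0%), but no gene passed the test of the difference between the pigs.

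**Figure D1:**
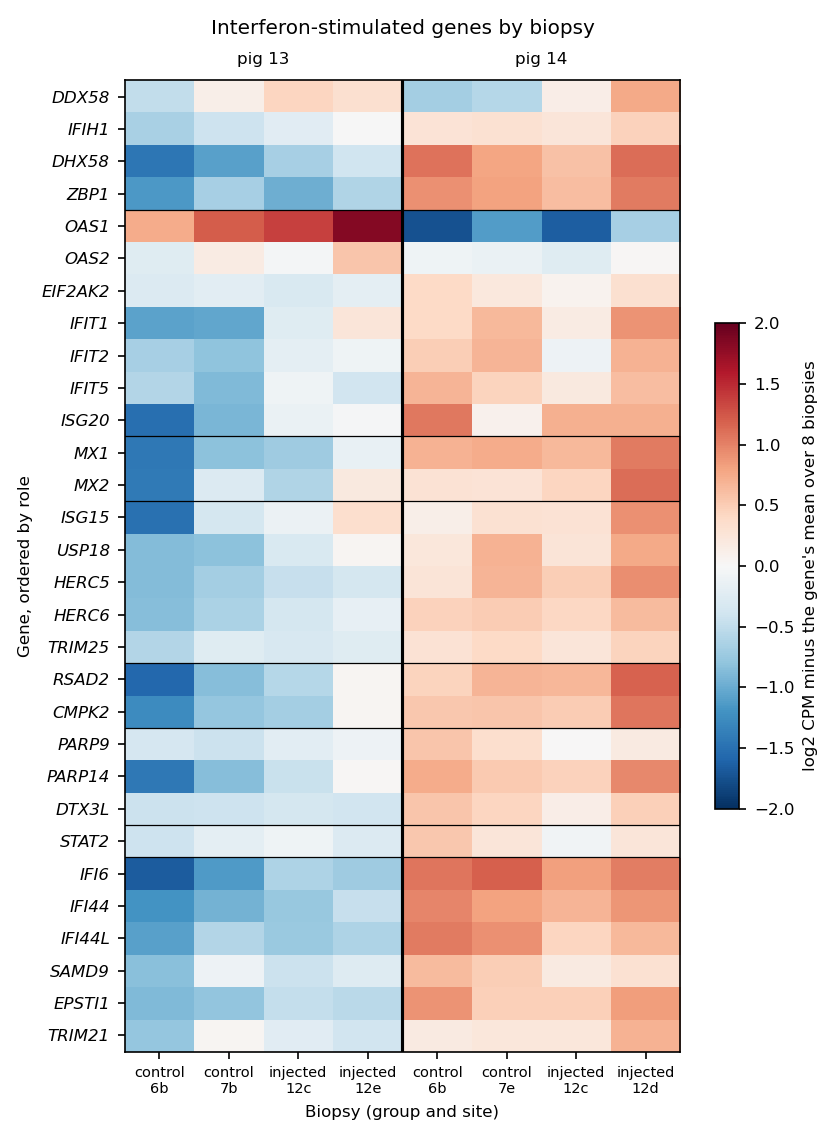
Level of the 30 tested interferon-stimulated genes (vertical axis, ordered by role) in each of the 8 biopsies (horizontal axis, by pig, group and site). Colour is log2 CPM minus the mean of the gene over the 8 biopsies. Pig 14 is mostly above and pig 13 mostly below the mean, OAS1 has the opposite pattern, and the pig 13 control 6b is the lowest biopsy for 24 of the 30 genes.

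The values that follow give, for each gene, the pig 13 controls (7b, then 6b), the pig 13 injected biopsies (12e, then 12c), the pig 14 controls (7e, then 6b) and the pig 14 injected biopsies (12d, then 12c). Genes are placed on Sscrofa11.1 by the coordinates deposited with the single biopsies. A gene is called at an adjusted p under 0.05 by edgeR's quasi-likelihood test.

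The sensors of foreign nucleic acid gave 3 genes higher in pig 14 and 1 gene with no such difference. IFIH1 (MDA5, a sensor of long double-stranded RNA, ENSSSCG00000015897, chromosome 15, 68928244 to 68985074) stood at 17.8 and 15.2 CPM in the pig 13 controls, 23.6 and 20.4 in its injected biopsies, 29.4 and 28.9 in the pig 14 controls and 32.8 and 28.1 in its injected biopsies. DHX58 (LGP2, which regulates the related sensors, ENSSSCG00000017416, chromosome 12, 20647692 to 20656692) stood at 2.98 and 2.33 CPM in the pig 13 controls, 4.80 and 4.01 in its injected biopsies, 10.9 and 13.4 in the pig 14 controls and 13.7 and 9.53 in its injected biopsies. ZBP1, a sensor of Z-form nucleic acid that can trigger cell death (ENSSSCG00000007508, chromosome 17, 57973096 to 57986136), had 14.7 and 10.5 CPM in the pig 13 controls, 15.3 and 11.9 in its injected biopsies, 40.9 and 44.0 in the pig 14 controls and 48.0 and 35.8 in its injected biopsies. For all 3 genes every biopsy of pig 14 lay above every biopsy of pig 13. The differences between the pigs were 0.65 ± 0.12 for IFIH1 (adjusted p = 0.00727 by edgeR), 1.79 ± 0.21 for DHX58 (adjusted p = 0.000866) and 1.69 ± 0.15 for ZBP1, or 3.22-fold (adjusted p = 0.000136). ZBP1 had the smallest p of the set in this comparison, while its difference between injected and control sites was 0.04 ± 0.14.

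DDX58 (RIG-I, the sensor of RNA with a triphosphate end, ENSSSCG00000030408, chromosome 10, 33865838 to 33933455) stood at 1.20 and 0.786 CPM in the pig 13 controls, 1.38 and 1.49 in its injected biopsies, 0.742 and 0.687 in the pig 14 controls and 1.87 and 1.21 in its injected biopsies. It was the only member whose injected biopsies were both above both controls in each pig, a pattern that 3.11% of all tested genes shared. Its difference of 0.80 ± 0.28 was the largest of the set for injection, with a 95% interval of 0.18 to 1.42 and an adjusted p of 0.964 by edgeR. The difference between the pigs was -0.16 ± 0.28. These values rest on 18 to 56 counts per biopsy. The deposited gene model also covers TOPORS: 5038 of its 5893 exon bases, or 85.5%, are shared with that gene on the same strand, and 855 are not, so reads of the 2 genes may not be separated or may not have been counted.

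Among the effectors that act on RNA, the IFIT proteins, which bind viral RNA ends, had 3 genes near each other on chromosome 14. IFIT1 (ENSSSCG00000010452, chromosome 14, 101214710 to 101249501) gave 14.7 and 14.3 CPM in the pig 13 controls, 35.6 and 25.5 in its injected biopsies, 47.1 and 39.9 in the pig 14 controls and 55.9 and 33.9 in its injected biopsies. IFIT2 (ENSSSCG00000010451, chromosome 14, 101185589 to 101204292) gave 6.09 and 6.68 CPM in the pig 13 controls, 10.02 and 9.23 in its injected biopsies, 17.0 and 14.9 in the pig 14 controls and 17.1 and 9.86 in its injected biopsies. IFIT5 (ENSSSCG00000010454, chromosome 14, 101254768 to 101267654) gave 7.70 and 9.46 CPM in the pig 13 controls, 10.9 and 13.3 in its injected biopsies, 19.3 and 22.6 in the pig 14 controls and 21.7 and 16.3 in its injected biopsies. The injected biopsies of pig 13 lay above its controls for all 3 genes, while in pig 14 the injected biopsy 12d was above both controls for IFIT1 and IFIT2 and between them for IFIT5, and 12c was lower than 12d in each case. IFIT5 did not overlap between the pigs and was higher in pig 14 by 0.97 ± 0.17 (adjusted p = 0.00653 by edgeR). IFIT1 and IFIT2 did overlap, through 12e of pig 13 and 12c of pig 14. They were called higher in pig 14, by 1.07 ± 0.25 and 0.90 ± 0.21 (adjusted p = 0.0349 and 0.0258 by edgeR). Both calls were lost when any 1 of 6 biopsies was left out, with adjusted p between 0.0566 and 0.108, and held without 12c of pig 14 or 12e of pig 13. The deposited IFIT1 model spans 2 RefSeq genes of the same build, IFIT3 (101214730 to 101225169) and IFIT1 (101237403 to 101249486), so its counts may hold both. At the IFIT5 model RefSeq has a gene with only a LOC number, so that symbol rests on the deposited table.

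The oligoadenylate synthetases make the signal that activates the nuclease RNase L, and 1 of them, OAS1, was the only member called lower in pig 14. OAS1 (ENSSSCG00000046640, chromosome 14, 38851918 to 38859409) stood at 7.95 and 5.74 CPM in the pig 13 controls, 12.3 and 8.92 in its injected biopsies, 1.59 and 1.03 in the pig 14 controls and 2.18 and 1.10 in its injected biopsies. Every biopsy of pig 13 was above every biopsy of pig 14, and the gene was 5.80-fold higher in pig 13, a log2 difference of -2.54 ± 0.26 for pig 14 over pig 13 (adjusted p = 0.000362 by edgeR). OAS2 (ENSSSCG00000009881, chromosome 14, 38827660 to 38860820) stood at 57.1 and 43.0 CPM in the pig 13 controls, 74.5 and 49.5 in its injected biopsies, 46.6 and 48.2 in the pig 14 controls and 51.7 and 43.3 in its injected biopsies. Its values overlapped between the pigs, the highest being the pig 13 injected biopsy 12e, and the difference of -0.23 ± 0.15 was not called (adjusted p = 0.356 by edgeR). The 2 gene models share no exon base, but OAS1 lies inside the span of OAS2 on the same strand, and RefSeq places OAS1 at 38851083 to 38867427 and ends OAS2 at 38847697. How the 2 models divide the reads of the locus is therefore uncertain. OASL (ENSSSCG00000009921, chromosome 14, 40900052 to 40917266), a related protein, had 16 and 0 counts in the pig 13 controls, 6 and 4 in its injected biopsies, 16 and 6 in the pig 14 controls and 6 and 8 in its injected biopsies, and was not tested.

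EIF2AK2 (PKR, the kinase that stops translation on meeting double-stranded RNA, ENSSSCG00000008496, chromosome 3, 103041224 to 103096738) had 57.1 and 54.9 CPM in the pig 13 controls, 57.8 and 53.5 in its injected biopsies, 76.6 and 87.4 in the pig 14 controls and 82.6 and 69.8 in its injected biopsies. Its pigs did not overlap, and the difference of 0.50 ± 0.09 was among the smaller ones called (adjusted p = 0.00745 by edgeR). ISG20, an RNA exonuclease (ENSSSCG00000024867, chromosome 1, 191183374 to 191195475), had 0.956 and 0.635 CPM in the pig 13 controls, 1.77 and 1.65 in its injected biopsies, 1.91 and 3.74 in the pig 14 controls and 2.94 and 2.94 in its injected biopsies. It was higher in pig 14 by 1.27 ± 0.31 (adjusted p = 0.0251 by edgeR), with no overlap between the pigs. That call was lost without 12d or 6b of pig 14 or without 12c or 6b of pig 13, at adjusted p of 0.0515 to 0.055. In pig 13 both injected values of ISG20 were above both controls.

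MX1 and MX2 encode GTPases that trap incoming viral particles. MX1 (ENSSSCG00000012077, chromosome 13, 204843754 to 204868922) had 15.8 and 10.4 CPM in the pig 13 controls, 25.2 and 17.0 in its injected biopsies, 46.5 and 45.2 in the pig 14 controls and 57.2 and 43.5 in its injected biopsies. It was higher in pig 14 in every biopsy, by 1.53 ± 0.19 (adjusted p = 0.00195 by edgeR). MX2 (ENSSSCG00000012076, chromosome 13, 204798630 to 204831957) had 20.5 and 9.25 CPM in the pig 13 controls, 28.3 and 16.2 in its injected biopsies, 29.7 and 30.0 in the pig 14 controls and 53.3 and 33.4 in its injected biopsies. The pigs did not overlap for MX2 either, but the difference of 0.98 ± 0.29 was not called (adjusted p = 0.0694 by edgeR). It was called without the pig 13 control 7b (adjusted p = 0.034 by edgeR) and by DESeq2 and limma-voom. MX2 was, with DDX58, 1 of 2 members whose injected biopsies were both above both controls in pig 14.

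The ISG15 system attaches and removes a ubiquitin-like protein. ISG15 itself (ENSSSCG00000040575, chromosome 6, 63363173 to 63364208) had 14.0 and 6.35 CPM in the pig 13 controls, 22.4 and 16.3 in its injected biopsies, 21.97 and 19.4 in the pig 14 controls and 33.7 and 21.8 in its injected biopsies. The pig 13 control 6b was the lowest and the pig 14 injected biopsy 12d the highest, and the pigs overlapped. The difference between the pigs was 0.77 ± 0.26 and was not called (adjusted p = 0.106 by edgeR). That between injected and control sites was 0.67 ± 0.26, with a 95% interval of 0.07 to 1.28 and an adjusted p of 0.964 by edgeR. HERC6, the ligase that attaches ISG15 in the mouse (ENSSSCG00000021712, chromosome 8, 130594939 to 130665145), had 33.9 and 29.1 CPM in the pig 13 controls, 46.7 and 41.2 in its injected biopsies, 75.0 and 72.3 in the pig 14 controls and 81.2 and 69.7 in its injected biopsies. HERC5, the ligase that does so in humans and lies near it (ENSSSCG00000030548, chromosome 8, 130533877 to 130590841), had 5.14 and 4.50 CPM in the pig 13 controls, 6.41 and 5.94 in its injected biopsies, 13.2 and 9.81 in the pig 14 controls and 15.7 and 11.5 in its injected biopsies. Both ligases had their 4 pig 13 values below their 4 pig 14 values. USP18, the protease that removes ISG15 and also dampens receptor signalling (ENSSSCG00000000774, chromosome 5, 70183308 to 70227990), had 6.36 and 6.20 CPM in the pig 13 controls, 11.6 and 9.15 in its injected biopsies, 18.3 and 13.2 in the pig 14 controls and 19.2 and 13.5 in its injected biopsies. TRIM25, a ligase that acts on RIG-I (ENSSSCG00000017614, chromosome 12, 33184044 to 33212398), had 42.6 and 33.3 CPM in the pig 13 controls, 42.7 and 40.3 in its injected biopsies, 65.98 and 61.7 in the pig 14 controls and 68.7 and 59.7 in its injected biopsies. The pigs did not overlap for USP18 or TRIM25 either. The log2 differences were 1.002 ± 0.12 for HERC6, 1.20 ± 0.15 for HERC5, 0.99 ± 0.19 for USP18 and 0.69 ± 0.10 for TRIM25, with adjusted p between 0.000788 and 0.0102 by edgeR.

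RSAD2 (viperin, which makes a chain-terminating nucleotide, ENSSSCG00000008648, chromosome 3, 128877186 to 128897847) had 9.45 and 5.74 CPM in the pig 13 controls, 17.4 and 11.5 in its injected biopsies, 27.2 and 23.1 in the pig 14 controls and 38.4 and 27.0 in its injected biopsies. Its neighbour CMPK2, a nucleotide kinase that supplies viperin (ENSSSCG00000008647, chromosome 3, 128903616 to 128917871), had 7.10 and 5.08 CPM in the pig 13 controls, 12.4 and 7.62 in its injected biopsies, 17.9 and 17.7 in the pig 14 controls and 25.5 and 17.2 in its injected biopsies. Both genes had the order pig 13 controls, pig 13 injected, then pig 14, with 12d of pig 14 the highest and 6b of pig 13 the lowest biopsy. RSAD2 was 1.45 ± 0.22 and CMPK2 1.32 ± 0.20 higher in pig 14 (adjusted p = 0.00457 and 0.00395 by edgeR). For injection the differences were 0.65 ± 0.22 and 0.48 ± 0.20, and RSAD2 had the smallest p of the set, with a 95% interval of 0.16 to 1.13 and an adjusted p of 0.964 by edgeR.

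**Figure D2:**
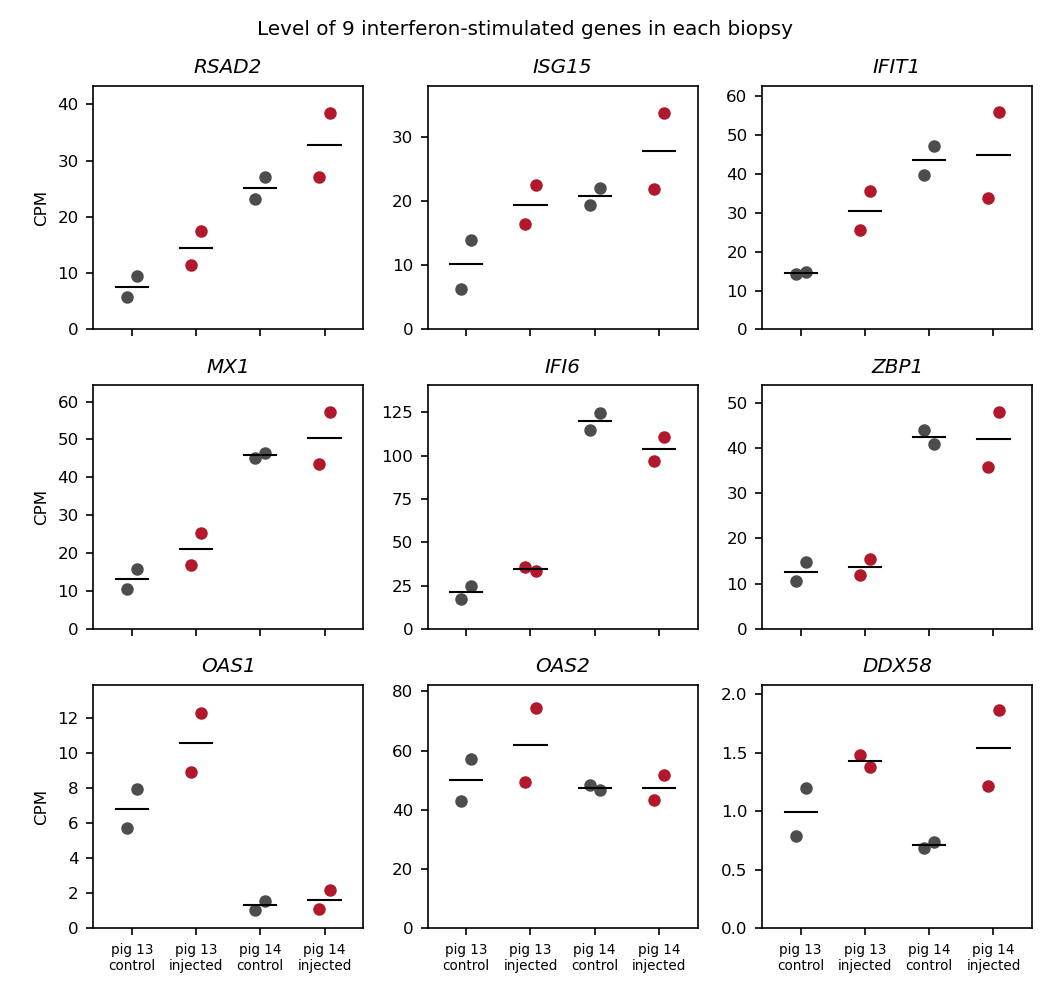
Level in CPM (vertical axis, from 0) of 9 interferon-stimulated genes in each biopsy (points), by pig and group (horizontal axis), with the mean of each pair of biopsies as a line. MX1, IFI6 and ZBP1 separate the pigs, OAS1 separates them the other way, and IFIT1 reads 14.3 and 14.7 CPM in the pig 13 controls and 25.5 and 35.6 CPM in its injected biopsies.

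PARP9, DTX3L and PARP14 act in ADP-ribosylation, with PARP9 and DTX3L forming a complex. PARP14 (ENSSSCG00000011874, chromosome 13, 137809503 to 137865383) had 7.79 and 5.199 CPM in the pig 13 controls, 14.2 and 10.3 in its injected biopsies, 20.2 and 23.6 in the pig 14 controls and 27.2 and 19.4 in its injected biopsies. DTX3L (ENSSSCG00000011876, chromosome 13, 137950272 to 137961343) had 9.21 and 9.10 CPM in the pig 13 controls, 9.37 and 9.63 in its injected biopsies, 16.5 and 18.1 in the pig 14 controls and 17.1 and 13.4 in its injected biopsies. PARP9 (ENSSSCG00000027709, chromosome 13, 137961357 to 138002024) had 4.15 and 4.41 CPM in the pig 13 controls, 5.23 and 4.80 in its injected biopsies, 7.03 and 8.21 in the pig 14 controls and 6.33 and 5.59 in its injected biopsies. None of the 3 overlapped between the pigs. PARP14 and DTX3L were called higher in pig 14, by 1.33 ± 0.22 and 0.80 ± 0.12 (adjusted p = 0.00647 and 0.00336 by edgeR). PARP9 had 0.54 ± 0.17 and was not called (adjusted p = 0.0666 by edgeR). It was called by DESeq2, and by edgeR without 12c of pig 14 (adjusted p = 0.0493). Of its exon bases 42.1% are shared with KPNA1 on the same strand. STAT2, the signal transducer of the set (ENSSSCG00000000396, chromosome 5, 21733035 to 21751354), had 15.3 and 13.1 CPM in the pig 13 controls, 14.5 and 16.6 in its injected biopsies, 20.8 and 25.6 in the pig 14 controls and 20.8 and 16.8 in its injected biopsies. It was just called higher in pig 14, by 0.49 ± 0.14 (adjusted p = 0.0489 by edgeR), and lost the call when any 1 of 6 biopsies was left out (0.0821 to 0.13), with exceptions 12c of pig 14 and 12c of pig 13. STAT2 shares 39.0% of its exon bases with PAN2 and 16.6% with APOF, on the same strand, and 10.3% with IL23A on the other.

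The remaining effectors included the largest difference in favour of pig 14. IFI6, a mitochondrial and endoplasmic reticulum protein that limits cell death and viral replication (ENSSSCG00000034570, chromosome 6, 84852792 to 84857982), had 24.9 and 17.3 CPM in the pig 13 controls, 33.4 and 35.6 in its injected biopsies, 125 and 115 in the pig 14 controls and 111 and 96.9 in its injected biopsies. It was 4.13-fold higher in pig 14, a log2 difference of 2.05 ± 0.20 (adjusted p = 0.000657 by edgeR), the largest of the set in that direction. IFI44 and IFI44L, which lie near each other, are strongly interferon-induced genes of less certain function. IFI44 (ENSSSCG00000003763, chromosome 6, 134612207 to 134650811) had 4.67 and 3.93 CPM in the pig 13 controls, 6.54 and 5.31 in its injected biopsies, 15.6 and 17.6 in the pig 14 controls and 16.5 and 14.3 in its injected biopsies. IFI44L (ENSSSCG00000027660, chromosome 6, 134659633 to 134680050) had 11.0 and 7.71 CPM in the pig 13 controls, 10.7 and 9.84 in its injected biopsies, 31.0 and 33.9 in the pig 14 controls and 25.7 and 22.2 in its injected biopsies. Neither overlapped between the pigs, and the differences were 1.66 ± 0.16 and 1.51 ± 0.16 (adjusted p = 0.00027 and 0.000404 by edgeR). IFI44L had the lowest value of the set for injection, -0.16 ± 0.15, with both pig 14 injected biopsies below both pig 14 controls. The same order in pig 14 held for IFI6, SAMD9, PARP9 and, narrowly, STAT2. How many of all genes shared it was not counted.

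EPSTI1, a gene first described in epithelium next to stroma (ENSSSCG00000037572, chromosome 11, 24116985 to 24216219), had 3.52 and 3.29 CPM in the pig 13 controls, 4.17 and 4.38 in its injected biopsies, 8.51 and 11.3 in the pig 14 controls and 10.9 and 8.50 in its injected biopsies. SAMD9, a restriction factor of poxviruses (ENSSSCG00000027372, chromosome 9, 72963815 to 72999258), had 38.2 and 22.9 CPM in the pig 13 controls, 34.4 and 30.5 in its injected biopsies, 57.6 and 63.7 in the pig 14 controls and 50.5 and 46.5 in its injected biopsies. RefSeq gives the gene at the SAMD9 model only a LOC number, so this symbol rests on the deposited table. TRIM21, the receptor that sends antibody-coated virus to the proteasome (ENSSSCG00000014780, chromosome 9, 5782200 to 5791577), had 11.6 and 6.62 CPM in the pig 13 controls, 8.61 and 9.63 in its injected biopsies, 13.2 and 12.8 in the pig 14 controls and 18.2 and 13.2 in its injected biopsies. Every biopsy of pig 14 was above every biopsy of pig 13 for each of these 3 genes, by 1.36 ± 0.16, 0.78 ± 0.16 and 0.65 ± 0.18 (adjusted p = 0.000958, 0.0131 and 0.0467 by edgeR). The call of TRIM21 held without 7b of pig 13 or 12c of pig 14 and was lost without any 1 of the other 6 biopsies (0.0798 to 0.147). RTP4, a chaperone of receptors, was outside the rule because the deposited table gives its gene no symbol, and RefSeq names it. It ran from 6.62 to 8.91 CPM in pig 13 and from 15.0 to 22.7 CPM in pig 14, a difference of 1.32 ± 0.15 (adjusted p = 0.000764 by edgeR), and had 0.17 ± 0.15 for injection.

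Per kilobase of exon, which allows levels of different genes to be set side by side, IFI6 was the most abundant member, with a mean over the 8 biopsies of 72.2 RPKM, followed by ISG15 at 30.7 RPKM. HERC6, MX1 and OAS2 followed at 12.3, 12.0 and 12.0 RPKM, closer to each other than the spread between biopsies, and TRIM25 was at 9.97 RPKM. Among the lowest members were ISG20 at 0.796 and OASL at 0.183 RPKM. DDX58 was at 0.199 RPKM over all 5893 exon bases, of which only 855 are not shared with TOPORS, so its place in this order is uncertain. The order differed between the animals: in the controls OAS1 was at 6.81 RPKM in pig 13 and at 1.304 RPKM in pig 14, while IFI6 was at 21.8 and 124 RPKM and MX1 at 4.84 and 16.9 RPKM.

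For injected against control sites with the pig as a block, 0 of 30 members were called by edgeR, by DESeq2 or by limma-voom. Over all genes edgeR called 0.0352% higher and 0 lower, DESeq2 0.227% and 0.0453%, and limma-voom 0.0302% and 0. The adjusted p of the members ran from 0.964 to 0.984 by edgeR, and the lowest under any of the 17 alternative settings was 0.355. At an unadjusted p under 0.05, 4 of 30 were higher (DDX58, ISG15, RSAD2 and CMPK2), against 2.39% of all genes, and 0 were lower, against 2.15%. The direction was uneven: 24 of 30 members had a log2 difference above 0, against 48.2% of all genes, with a median of 0.24 against -0.01. A separate list of 30 further interferon-stimulated genes did not share this, with 15 above 0 and a median of -0.00. The 6 members below 0 were IFI44L, SAMD9, STAT2, PARP9, DTX3L and EIF2AK2, all between -0.16 and -0.06. The intervals bound the effect unevenly, since 23 of the 30 members ended below a log2 difference of 1 and 7 reached it.

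The other members with a small p for injection were 0.49 ± 0.22 for PARP14, 0.26 ± 0.12 for HERC6, 0.55 ± 0.25 for IFIT1, 0.40 ± 0.19 for MX1, 0.24 ± 0.12 for IFIH1 and 0.50 ± 0.25 for OAS1. With both pigs pooled, DDX58 was the only 1 of the 30 members with all 4 injected values above all 4 control values, as 1.15% of all genes had, and none had all 4 below, as 0.916% had. The lowest injected value of DDX58, 1.21 CPM, was just above its highest control value, 1.20 CPM. Leaving out the pig 13 control 7b gave 24 members above 0 and a median of 0.25, and leaving out 6b gave 22 and 0.16, with 0 called in both. Leaving out any 1 biopsy gave 22 to 28 members above 0 and medians of 0.16 to 0.37, with 0 called each time.

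Of the endothelial markers, 7 of 8 had a difference above 0 for injection, against 48.2% of all genes, with a median of 0.08. At an unadjusted p under 0.05 by edgeR 3 were higher, where 2.39% of all genes were. Their summed level was 730 to 1050 CPM at injected and 655 to 909 CPM at control sites. ACKR1, a chemokine-binding protein of venules, had 0.56 ± 0.09 (adjusted p = 0.173 by edgeR) and was called by DESeq2, and CLDN5, a tight junction protein of vessels, had 0.62 ± 0.15 (adjusted p = 0.733 by edgeR). These 2 were named after their values were seen. Fibroblast markers had 4 of 6 above 0 and macrophage markers 6 of 10, while T and NK cell markers had 3 of 8, neutrophil markers 2 of 8 and plasmacytoid dendritic cell markers 1 of 4. The part of these cell types in the differences at injected sites was not tested.

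**Figure D3:**
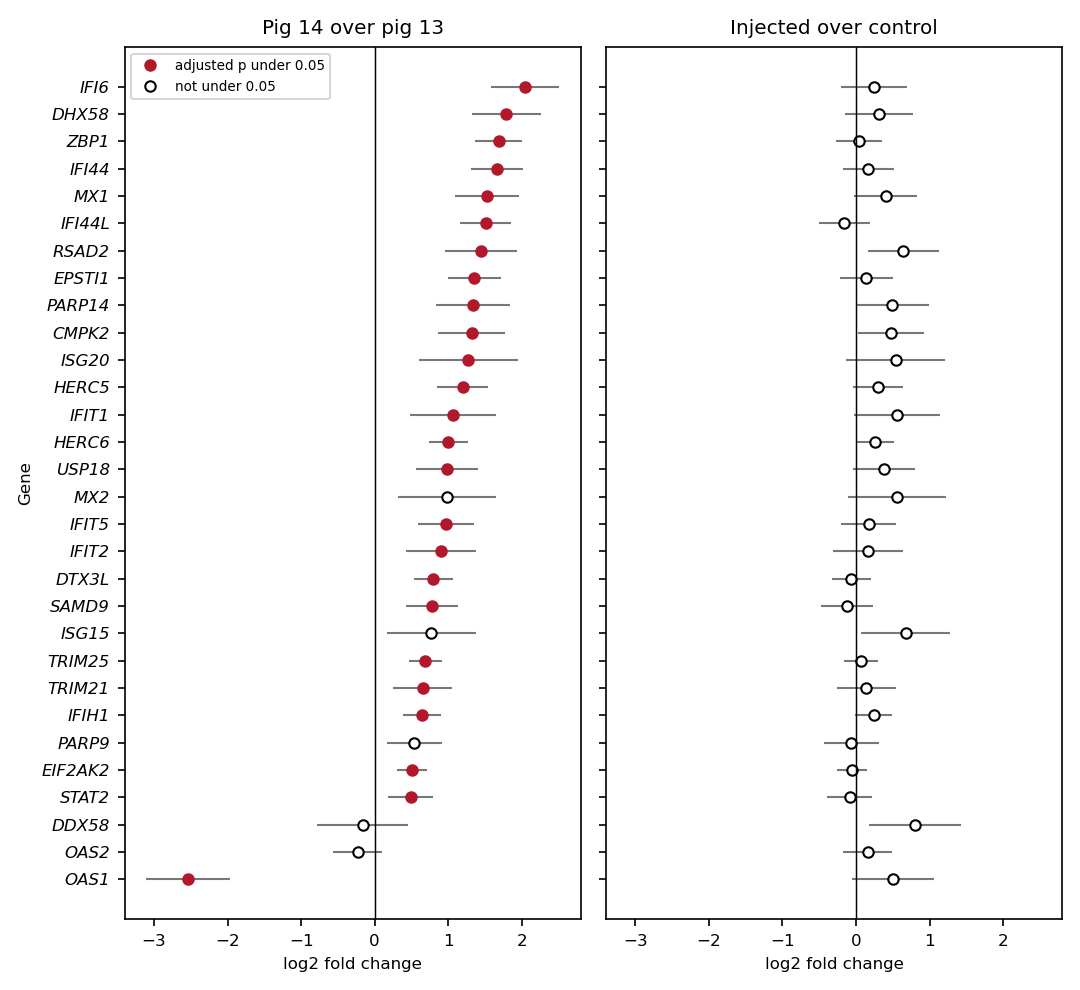
Log2 fold change (horizontal axes) with its 95% interval for the 30 tested genes (vertical axis), for pig 14 over pig 13 on the left and injected over control on the right. Filled points passed an adjusted p of 0.05 by edgeR: 25 of 30 on the left and 0 of 30 on the right.

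Between the animals, 24 of 30 members were called higher in pig 14, against 6.39% of all genes, and 1 was called lower, against 4.34%. The member median was 0.98 and that of all genes -0.00. DESeq2 called 27 higher (9.08% of all genes) and 1 lower (6.71%), adding MX2, ISG15 and PARP9. In 24 members all 4 biopsies of pig 14 were above all 4 of pig 13, which held for 9.87% of all genes, and the reverse held for OAS1 alone, against 8.73%. Counting only the controls, 27 of 30 members had both pig 14 values above both pig 13 values (27.4% of all genes). Counting only the injected biopsies, 24 of 30 did (26.2%). Over all genes edgeR called 1270 higher and 863 lower. Scaled by library totals in place of TMM, these were 921 and 3936, the median of all genes moved to -0.21, and the member median was 0.78, or 0.99 above that of all genes.

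Without the pig 13 control 7b, 22 members were called higher and 1 lower, where 1240 and 743 genes in all were. Without its control 6b, 19 and 1 were, where 1256 and 903 genes in all were. Leaving out any 1 biopsy gave 19 to 25 members higher and 1 lower, with 723 to 1347 and 392 to 903 genes in all. Over the 15 settings tried, 19 members were called higher and OAS1 lower in every one, 8 were called in some, and DDX58 and OAS2 were called in none. Markers of T and NK cells moved with the animals: 7 of the 8 tested were called higher in pig 14, where 6.39% of all genes were. Their summed level was 12.2 to 20.6 CPM in pig 13 and 28.1 to 51.9 CPM in pig 14, with CD3G at 0 in some biopsies. Macrophage and monocyte markers summed to 381 to 662 CPM in pig 13 and 676 to 1161 CPM in pig 14, and 2 of 10 were called higher in pig 14. These were CSF1R (0.63) and AIF1 (0.89). C1QA, C1QB, C1QC, CD86 and MRC1 had 0.32 to 0.92 and were not called. CD163 (0.0007), CD14 (-0.02) and CD68 (-0.11) differed little between the animals. Fibroblast markers summed to 19099 to 108834 CPM in pig 13 and 136220 to 192233 CPM in pig 14, with no overlap, and had a median difference of 1.22, and 1 of 6, LUM, was called (adjusted p = 0.0353 by edgeR). Of the 4 tested plasmacytoid dendritic cell markers 1, IRF8, was called higher (14.3 to 29.5 against 5.11 to 10.6 CPM). The 6 tested keratinocyte markers had a median of -0.62, and 1, KRT5, was called lower. Neutrophil markers had a median of -1.08, with 0 of 8 called, though MMP25 (0.97) and CSF3R (0.16) were above 0. Without the pig 13 control 7b their median was -0.35, with 1 called higher in pig 14. Without its control 6b the median was -1.28, with 4 called lower. B and plasma cell markers had a median of 0.81, with 1 of 6, BLK, called higher. Endothelial markers had a median of -0.08, with 1 of 8, ACKR1, called higher. The part of these cell types in the differences of the interferon-stimulated genes was not tested.

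Within each pig, the injected sites were set against the controls of the same animal. In pig 13, 29 of 30 members had a log2 difference above 0, against 48.2% of all genes, with a median of 0.49, and in 21 both injected biopsies were above both controls, against 18.2%. The exception, EIF2AK2, was at -0.01 ± 0.13. Against the control 6b alone, the lowest biopsy for 24 members, the medians of 12e and 12c were 0.70 and 0.50, and against 7b alone 0.44 and 0.20. In pig 14, 17 of 30 were above 0, against 48.0%, with a median of 0.02, and in 2 both injected biopsies were above both controls, against 20.5%. IFIT1 had 1.07 ± 0.25 in pig 13 and 0.05 ± 0.24 in pig 14, IFI6 0.71 ± 0.17 and -0.21 ± 0.17, and IFIT2 0.59 ± 0.25 and -0.24 ± 0.24.

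The interaction test asked whether the difference at injected sites was unlike in the 2 pigs. With edgeR it called 0 of 30 members, where it called 0 of all genes. With DESeq2 it called 0 of 30, where it called 0.357% of all genes. Without adjustment, 7 members had p under 0.05 with a smaller difference at injected sites in pig 14 (DHX58, IFIT1, IFIT2, IFIT5, HERC6, PARP14 and IFI6), against 4.41% of all genes, and 0 had a larger one, against 3.81%. In 28 of 30 the difference was smaller in pig 14, against 50.3% of all genes, with a median of -0.45. The 4 members with the smallest p were IFI6 at -0.91 ± 0.24 (adjusted p = 0.441 by edgeR), IFIT1 at -1.03 ± 0.34 (0.513), IFIT2 at -0.83 ± 0.34 (0.571) and HERC6 at -0.45 ± 0.19 (0.591). Without the pig 13 control 6b the median was -0.26, without 7b it was -0.63, and without the pig 14 injected biopsy 12d it was -0.65.

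**Figure D4:**
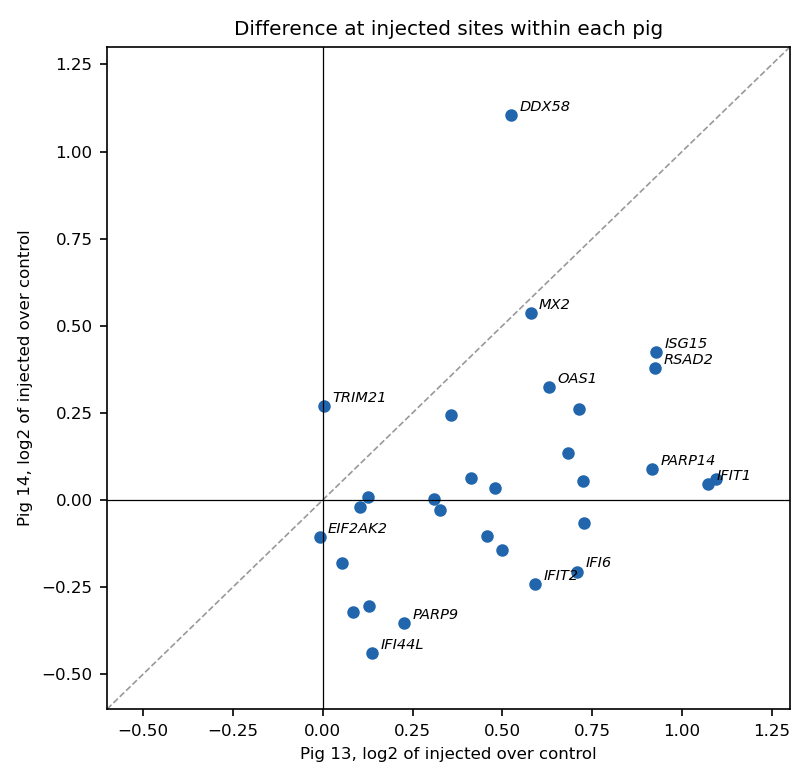
Log2 difference between injected and control sites in pig 13 (horizontal axis) and in pig 14 (vertical axis) for the 30 tested genes (points), with the dashed line marking equal values. In 28 of 30 genes the point lies below the line, and DDX58 and TRIM21 lie above it.

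Some biopsies of the same pig and group differed by more than the median of 0.24 between injected and control sites. In pig 14 the injected biopsy 12d was above the injected biopsy 12c for 29 of 30 members, by a median of 0.40 on the log2 scale, and in pig 13 the control 7b was above the control 6b for 27 of 30, by 0.38. The pig 14 biopsy 12d was the highest of all 8 for 17 members and the pig 14 control 6b for 10, while the pig 13 control 6b was the lowest for 24. In pig 14, 12d was above the control 7e for 25 members and above the control 6b for 19, while 12c was above 7e for 3 and above 6b for 8. Against the pig 13 control 6b, both injected biopsies of pig 13 were higher for 30 and 29 members, and against 7b for 26 and 22.

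Members that lie near each other had similar differences between the animals in some cases and not in others. RSAD2 and CMPK2 start from opposite strands 5768 bases apart and had 1.45 and 1.32. IFI44 and IFI44L, 8821 bases apart, had 1.66 and 1.51, and HERC5 and HERC6, 4097 bases apart, had 1.20 and 1.002. DTX3L and PARP9, whose models begin 13 bases apart on opposite strands, had 0.80 and 0.54. OAS1 and OAS2 had -2.54 and -0.23, the widest gap between neighbours.

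Genes upstream of the set were measured too. For the lists that follow, 2.39% of all genes were higher and 2.15% lower for injection at an unadjusted p under 0.05 by edgeR. Between the animals, 6.39% of all genes were called higher and 4.34% lower in pig 14. Of 15 ligands and receptors listed, 9 were tested, and 0 were called for injection (1 at an unadjusted p under 0.05 by edgeR, 0 by DESeq2 or limma-voom) or between the animals, where IFNGR2 was closest (adjusted p = 0.0512 by edgeR). IFNB1, interferon beta, had 0 counts in 7 biopsies and 2 counts at most, and IFNG, interferon gamma, had 0 to 6. Other interferon genes had counts in every biopsy, 53 to 223 for IFNE and 18 to 49 for IFNK. IFN-ALPHA-1 had 7 to 31, and IFNA1, which was not tested, 2 to 13. The receptor chain IFNAR1 ran from 29.6 to 47.8 CPM in pig 13 and from 34.1 to 42.8 CPM in pig 14, and had 0.15 ± 0.14 for injection. IFNAR2, the other chain, had 0.58 ± 0.25, IFNE, an epithelial interferon, -0.66 ± 0.31, and IL10RB, a chain of the interferon lambda receptor, 0.24 ± 0.17 (adjusted p = 0.964 for each by edgeR).

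Of 16 tested genes that sense or transmit the signal, 0 were called for injection by edgeR, DESeq2 or limma-voom (0 at an unadjusted p under 0.05). In pig 14, 6, or 37.5%, were called higher, against 6.39% of all genes, and 0 lower, with a median of 0.44. IRF7, the factor that amplifies interferon production, ran from 13.9 to 18.4 CPM in pig 13 and from 27.3 to 36.2 CPM in pig 14, a difference of 0.95 ± 0.11 (adjusted p = 0.000764 by edgeR), with 0.22 ± 0.11 for injection. IRF9, at 0.756 to 2.70 CPM, had 0.89 ± 0.33 between the animals and was not called (adjusted p = 0.114 by edgeR). Of the kinases, JAK1 had 0.08 ± 0.11 and was not called, and TYK2 was higher in pig 14 by 0.37 ± 0.10 (adjusted p = 0.034 by edgeR). For injection, JAK1 had 0.05 ± 0.11, TYK2 -0.08 ± 0.10 and IRF9 0.09 ± 0.33. The adaptor TICAM1 had 0.23 ± 0.12 and the RNA receptor TLR3 -0.28 ± 0.16, both with an adjusted p of 0.964 by edgeR.

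Of 9 feedback inhibitors 0 were called for injection by edgeR, DESeq2 or limma-voom (2 at an unadjusted p under 0.05). In pig 14, 3, PTPN6, SOCS1 and IRF2, were called higher, or 33.3% against 6.39% of all genes. SOCS3, which blocks cytokine receptors, had 1.86 ± 0.63 for injection, with 3.597 to 42.1 CPM in pig 13 and 7.44 to 47.2 CPM in pig 14 (adjusted p = 0.964 by edgeR), and was called higher at injected sites without the pig 13 control 7b. CISH, a STAT5 target that feeds back on cytokine receptors, had 0.23 ± 0.10, and IRF2 -0.05 ± 0.09. Of 30 further interferon-stimulated genes tested, 0 were called for injection by the same tools (3 at an unadjusted p under 0.05). For injection 15 were above 0, with a median of -0.00. In pig 14, 16, or 53.3%, were called higher, against 6.39% of all genes, and 0 lower, with a median of 0.67. The 3 with the smallest p for injection were NT5C3A (-0.35 ± 0.13), ZNFX1 (0.25 ± 0.10) and IFITM1 (0.43 ± 0.17), each with an adjusted p of 0.964 by edgeR. BST2, a tether of budding virus, and LGALS3BP, a secreted glycoprotein, both named after their values were seen, were 2.15 ± 0.24 and 3.22 ± 0.17 higher in pig 14 (adjusted p = 0.000653 and 2.72e-06 by edgeR).

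Genes that respond more to interferon gamma than to type I interferon also differed between the animals. Of 16 tested, 14, or 87.5%, were called higher in pig 14, against 6.39% of all genes, and 0 lower, against 4.34%, with a median of 1.20. CXCL9 and IDO1, named after their values were seen, encode a T cell chemokine and a tryptophan-degrading enzyme. CXCL9 ran from 1.09 to 2.00 CPM in pig 13 and from 30.1 to 56.2 CPM in pig 14, and IDO1 from 0.131 to 0.437 and from 4.42 to 8.13 CPM. For injection 0 of the 16 were called by edgeR (2 at an unadjusted p under 0.05) or limma-voom and 1, IRF1, by DESeq2. IRF1, a transcription factor, had 1.07 ± 0.28 (adjusted p = 0.895 by edgeR), the chemokine CXCL10 2.31 ± 0.71 and UBD, a ubiquitin-like protein, 0.48 ± 0.29 (adjusted p = 0.964 for both by edgeR). Without the pig 13 control 7b, the genes called higher in pig 14 were 13 of these 16, 16 of the 30 further interferon-stimulated genes, 7 of the 16 signalling genes, 3 of the 9 feedback inhibitors, 1 of the 9 ligands and receptors, and 6 of the 8 T and NK cell markers. Without its control 6b they were 13, 15, 6, 3, 1 and 6, in the same order, and 1 further interferon-stimulated gene was called lower. Over all genes, 1240 were called higher in pig 14 without 7b and 1256 without 6b.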

How the data were processed

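Per the labels' protocols, RNA came from whole biopsies, and RiboZero Gold removed ribosomal RNA. The submitters' processing notes name STAR 2.5.1a, featureCounts 1.4.6-p5 and Sscrofa11.1. The strand setting of the counting was not given in the sources used here. The deposited series table holds whole-number counts per Ensembl gene, and the authors' files of single biopsies add CPM and RPKM, per the file headers. The deposited counts and CPM of single biopsies served as a check of the series table. All tests, CPM and RPKM printed here start from the counts of the series table. The file of the pig 13 control 7b was incomplete, and its counts were taken from the series table as for all biopsies. The 425 genes on several lines with identical counts were kept once.

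Genes were kept with filterByExpr (minimum count 10) and scaled by TMM in edgeR 4.0.16 (R 4.3.3). The quasi-likelihood F test with robust estimation had pig and treatment in the model, and a second model added their interaction. Benjamini-Hochberg adjustment covered all 19862 genes, and the biological coefficient of variation was 19.8%. DESeq2 1.42.0, limma-voom (limma 3.58.1), other scalings, no filter, no robust estimation, no pig term and leaving out each biopsy were alternatives. The pig was a block because the labels name the animal of each biopsy. Checked on the data, the correlation of an injected with a control biopsy, each as its deviation from its group mean, was 0.252 to 0.538 where the pig was the same and -0.49 to -0.282 where it was not. The deviations of a group cancel out, so the negative values follow from the positive ones and are no separate check. The fit was also run on simulated counts with known differences, and the outcome of that run is not given here.

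The members and lists were chosen with earlier results of these data known. Values by biopsy were to be given for the 10 members with the smallest p for injection, 4 for the interaction, 4 for the pig, and any called or not tested, and in each list for up to 3 genes with the smallest p for injection, besides IFNAR1, IFNAR2, IFNB1, JAK1, TYK2, IRF9 and IRF7. One further gene of this rule is not reported here. The few other members were given too. A planned search of promoters for motifs was not run.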

Additional observations from a re-analysis of the deposited data

Results flagged for a closer look

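IFIT2 had 17.1 CPM in the injected biopsy 12d of pig 14, against 9.23 to 10.02 CPM in the other 3 injected biopsies, a gap of 90% of the range of the group. It was the only such biopsy among 62 groups of 4 looked at (31 genes, injected and control), where chance alone would give about 1 in 20. The pig 14 controls had 17.0 and 14.9 CPM, so 12d was near these controls and 12c, the other injected site of that pig, was below them.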

How the results depend on the processing

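Across the alternatives 0 members were called for injection or for the interaction, by any tool, scaling, filter or left-out biopsy. Without the pig term (no replicate block), 0 members and 6 genes in all were called higher for injection, 23 members were above 0, the median was 0.17 and IFI6 turned to -0.0253. Between the pigs, leaving out 1 biopsy gave 723 to 1347 genes higher and 392 to 903 lower. By DESeq2, 45 genes were called higher and 9 lower for injection, 1333 lower in pig 14, and 22 higher and 49 lower for the interaction, where no filter gave 3 and 5. Scaling by library totals gave 3936 genes lower in pig 14, a member median of 0.78 between the pigs and 4 members above 0 for the interaction.

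Leaving out 1 biopsy gave 3 to 19 genes called higher for injection, with 3 without 12d or 6b of pig 14, 4 without 12c or 6b of pig 13 and 19 without 7b of pig 13, and 0 to 1 lower. For the interaction it gave 0 to 143 higher and 0 to 170 lower, the highest without 6b of pig 13, a member median of -0.65 to -0.26 and 1 to 8 members above 0. In those fits the lone biopsy of an arm is assumed to vary like the others. Differences near 0 turned with single biopsies: for injection DTX3L (-0.108 to 0.0306), EIF2AK2 (-0.0920 to 0.00482), OAS2 (-0.00483 to 0.242), PARP9 (-0.145 to 0.0395), STAT2 (-0.176 to 0.0205), TRIM25 (-0.0111 to 0.129) and ZBP1 (-0.0575 to 0.141), and between the pigs DDX58 (-0.381 to 0.0180).

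In pig 13 alone, the sign for injection turned for PARP9 (0.23), DTX3L (0.0539), STAT2 (0.13), IFI44L (0.14) and SAMD9 (0.0850). In pig 14 alone it turned for DHX58 (-0.0650), ZBP1 (-0.0200), IFIT2 (-0.24), IFIT5 (-0.14), IFI6 (-0.21), IFI44 (-0.10) and EPSTI1 (-0.0298). The cause of these changes was not tested. Depth limits DDX58, ISG20 and OASL most, and with 4 biopsies a group from 2 animals the intervals for injection reach a doubling for 7 members.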
